A study of Homo sapiens with 8 samples.

Results

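The clone C3.2 of the CTCF AID2 SEM cells is described here through the comparison of its resistant cells with its parental cells. The comparison is between 4 of the 8 RNA-seq libraries of the series, 2 of parental and 2 of resistant cells. The 4 libraries of another clone, C17.2, entered the same model and so the library factors and the estimate of the spread. SEM is a KMT2A-rearranged B-cell acute lymphoblastic leukemia (B-ALL) line. C3.2 is a single-cell clone in which each *CTCF* allele ends in the miniAID-mClover3 tag, and it expresses OsTIR1(F74G) with a Zeocin resistance gene from a lentiviral cassette under the MND promoter. Parental and resistant cells share these alterations. No drug was given to parental cells. Resistant cells were the survivors of 36 days in the auxin analog 5-Ph-IAA (1 μM) with Zeocin (100 μg/ml), followed by 48 h without either, and they retained full-length tagged CTCF with a missense change in the miniAID tag. Of the 60754 genes and spike-in sequences listed, 14519 genes were tested, 10895 of them protein coding. Each reached 1 TPM, a transcript abundance corrected for length and library total, in at least 1 of the 4 C3.2 libraries. All cells compared came from 1 clone. The missense change, the time in culture and the exposure to each drug cannot be told apart in this comparison.

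In the auxin-inducible degron system, the plant F-box protein OsTIR1 joins SKP1, CUL1 and RBX1 in an SCF ubiquitin ligase, binds the miniAID tag when an auxin analog is present, and sends the tagged protein to the proteasome. CTCF is a zinc-finger protein that anchors chromatin loops together with cohesin. Precursor-B leukemia cells are recognised by the surrogate light chain of the pre-B receptor, by the recombinase genes and by the interleukin-7 receptor, which mark early stages of B-cell development.

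TPM keep no depth, so the depth of the libraries is unknown. Between-library factors were trimmed means of log2 ratios, and limma compared log2(scaled TPM + 1) in 1 model that held the 4 groups of both clones. A gene was called where its Benjamini-Hochberg adjusted p from limma was under 0.05. A log2 change is resistant minus parental on this scale, on which changes of low genes come out too small, whereas the TPM given for single libraries are the deposited values. Nothing states that the 2 libraries of a group came from separate cultures, so the p-values measure only the spread between these libraries, which may be technical. Pearson's r between the 2 libraries across genes was 0.976 in parental and 0.964 in resistant cells. Of 9 B-lineage markers 8 reached 1 TPM, with a sum of 821 to 874 TPM in parental and 703 to 739 TPM in resistant libraries, while 8 of 9 T-cell markers were at 0 in all 4 libraries. Summed myeloid markers were 4.66 to 6.41 TPM in parental and 7.89 to 8.54 TPM in resistant libraries, with 3 of 11 reaching 1 TPM, and summed NK-cell markers were 8.40 to 8.81 TPM and 9.49 to 10.96 TPM, with 2 of 6 reaching 1 TPM.

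Resistant library 2 stood apart in its short RNA genes. None of the 4598 small RNA genes of at most 110 bases was above 0 in it, whereas 44 to 79 of them were above 0 in each of the other 3 C3.2 libraries. The shortest small RNA gene above 0 was 113 bases long in resistant library 2, 101 bases in resistant library 1 and parental library 2, and 94 bases in parental library 1. These genes summed to 19460 to 21420 TPM in the other 3 libraries. Of the tested genes 104 have at most 110 bases, and 6 of them were called, all lower. When the 104 were left out of the Benjamini-Hochberg adjustment, 726 genes were called higher and 1087 lower. The fit itself was not repeated without them.

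Resistance of C3.2 went with many small changes and few large ones. Of the 14519 genes, 1813 were called (12.5%), 724 higher (4.99%) and 1089 lower (7.50%) in resistant cells, and the median absolute log2 change of the called genes was 0.42. A change of at least 2-fold was called for 135 genes (0.930%), 27 higher and 108 lower, and 82 of the 135 genes were protein coding. The resistant and parental libraries did not overlap in 8334 of all tested genes (57.4%), called or not. They did not overlap in any of the 1813 called genes, so a lack of overlap adds nothing to a call. Protein-coding genes were called in 14.1% of cases, with 622 higher and 918 lower, and lncRNA genes in 8.71%, with 69 higher and 73 lower. The direction of the small changes depended on the scaling. Among called genes 39.9% were higher as reported, 58.7% with the TPM as deposited, 52.0% after quantile normalization and 71.5% when TPM were rescaled over protein-coding genes, the last of which moved the median log2 change of all genes from 0.0013 to 0.093. Under all 4 scalings 1165 genes were called in the same direction (8.02%), 640 higher and 525 lower, including 131 of the 135 genes called with at least a 2-fold change.

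**Figure D1:**
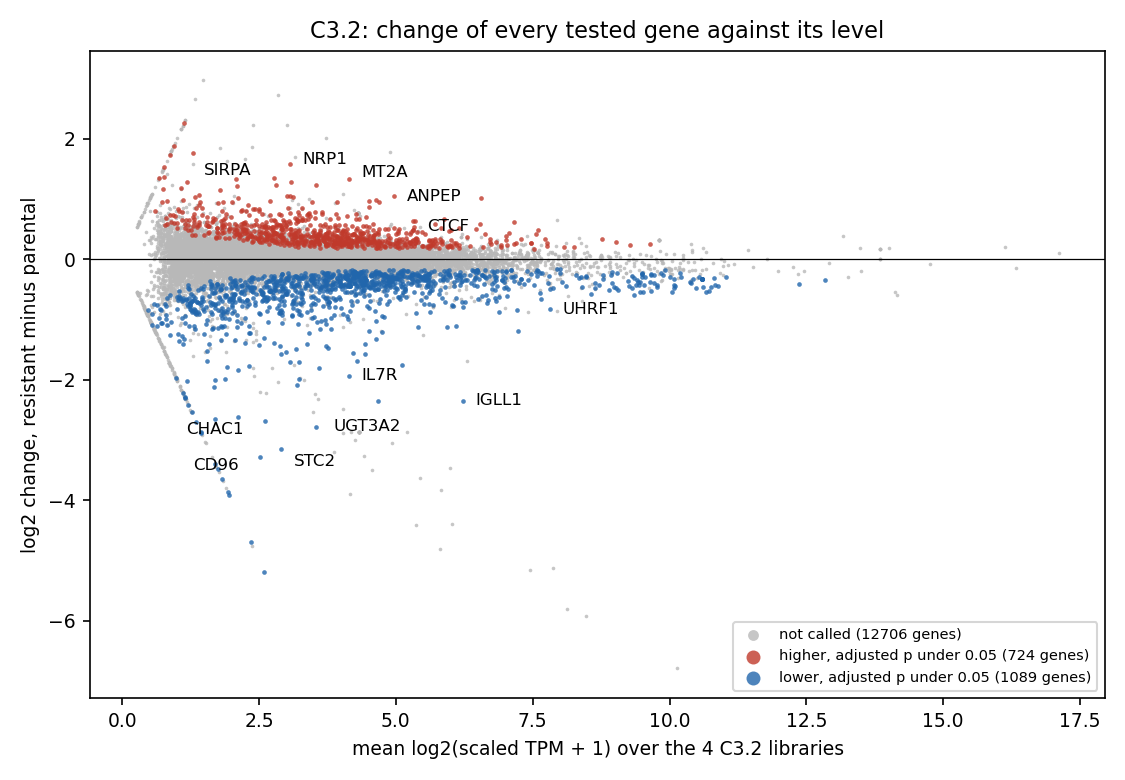
Log2 change of each of the 14519 tested genes (resistant minus parental) against its mean log2(scaled TPM + 1) over the 4 C3.2 libraries. Red points are the 724 genes called higher, blue points the 1089 called lower, and most grey points with large falls at high levels are short RNA genes listed at 0 in resistant library 2, such as *SNORD13*, with 2445 and 2613 TPM in parental libraries.

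Leaving out a library changed the number of calls most where a parental library was removed. Without parental library 1 there were 402 calls and without parental library 2 there were 468, against 944 without resistant library 2 and 1874 without resistant library 1. When the 4 C3.2 libraries were fitted alone, 386 genes were called, 110 higher and 276 lower, and 98 of the 135 genes with at least a 2-fold change stayed called. No called gene of the reported fit changed sign in any of these 5 fits.

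The degron target and its ligase were read first. *CTCF* was at 32.2 and 32.3 TPM in parental cells and at 44.2 and 41.5 TPM in resistant cells, so the groups did not overlap, and its log2 change was 0.34 (SE 0.042, adjusted p = 0.00623, limma). It was called under all 4 scalings but not in the 4 C3.2 libraries alone (adjusted p = 0.0558, limma). *SKP1*, the adaptor of the SCF ligase, was 112 and 115 TPM in parental libraries and 121 and 113 TPM in resistant libraries, and its log2 change of -0.02 was not called (adjusted p = 0.818, limma) and was positive under the 3 other scalings. The cullin scaffold *CUL1* (0.04) and the RING subunit *RBX1* (0.03) were not called either, and *RBX1* reached -0.013 without resistant library 2. The lists here and below are read against the 12.5% of all tested genes that were called, 4.99% higher and 7.50% lower. Of 29 tested genes of the SCF and NEDD8 machinery, 2 rose, 2 fell and 25 were not called, with a median of -0.06. The 2 that rose were *COPS7A* (from 7.16 and 7.01 TPM to 12.05 and 9.74 TPM), a subunit of the COP9 signalosome that removes NEDD8 from cullins, and *UBE2F* (log2 change 0.24), a NEDD8-conjugating enzyme. The ubiquitin-conjugating enzymes *CDC34* (-0.32) and *UBE2R2* (-0.20) fell, but neither was called under all 4 scalings. Of 40 proteasome genes, 2 rose (*PSMC4* at 0.27 and *PSME3* at 0.20), 1 fell (*PSMA6* at -0.30) and 37 were not called. Only *PSMC4* was called under all 4 scalings. Of 19 genes of CTCF, cohesin and partners, the cohesin subunit *STAG1* rose from 17.9 and 18.9 TPM to 24.9 and 22.6 TPM, and its paralog *STAG2* (-0.24) fell as reported but was not called under all 4 scalings.

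The largest falls among protein-coding genes were those of *CD96* and *STC2*. *CD96* (chr3:111292719-111665750, GRCh38 here and below), an immune receptor of the immunoglobulin superfamily, was 15.98 and 14.7 TPM in parental libraries and 0.93 and 0.68 TPM in resistant libraries, a log2 change of -3.28 (SE 0.16, adjusted p = 0.000227, limma). *STC2* (chr5:173314723-173328447), which encodes the secreted glycoprotein stanniocalcin 2, was 19.7 and 19.2 TPM in parental libraries and 1.24 and 1.67 TPM in resistant libraries (log2 change -3.15, adjusted p = 0.000103, limma). In both genes every resistant library was far below both parental libraries, and the naming rule took only genes without overlap. *UGT3A2* (chr5:36035021-36071358), a UDP-glycosyltransferase, fell from 26.2 and 27.9 TPM to 3.2 and 3.43 TPM, and its adjusted p of 2.73e-05 (limma) was reached with a log2 change of -2.78 and an SE of 0.06. *VAMP8*, a SNARE protein of endosomal fusion, fell from 6.74 and 6.18 TPM to 0.29 and 0.26 TPM and *BAHCC1*, a chromatin protein with a BAH domain, fell from 8.7 and 9.08 TPM to 0.73 and 0.72 TPM. *ADGRL3*, the adhesion receptor latrophilin 3, fell from 17.04 and 15.7 TPM to 3.68 and 2.93 TPM. The zinc-finger gene *ZNF660*, which overlaps *ZNF197* on the same strand, fell from 3.02 and 3.56 TPM to 0.14 and 0.11 TPM. The lipocalin *LCN6* (from 15.8 and 16.5 TPM to 4.48 and 2.83 TPM) and *OAT* (from 4.84 and 5.56 TPM to 0.48 and 0.53 TPM), the mitochondrial ornithine aminotransferase, were also among the 15 largest falls. All 15 were called under all 4 scalings, in the fit of the 4 C3.2 libraries alone and in each fit that left out a library.

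**Figure D2:**
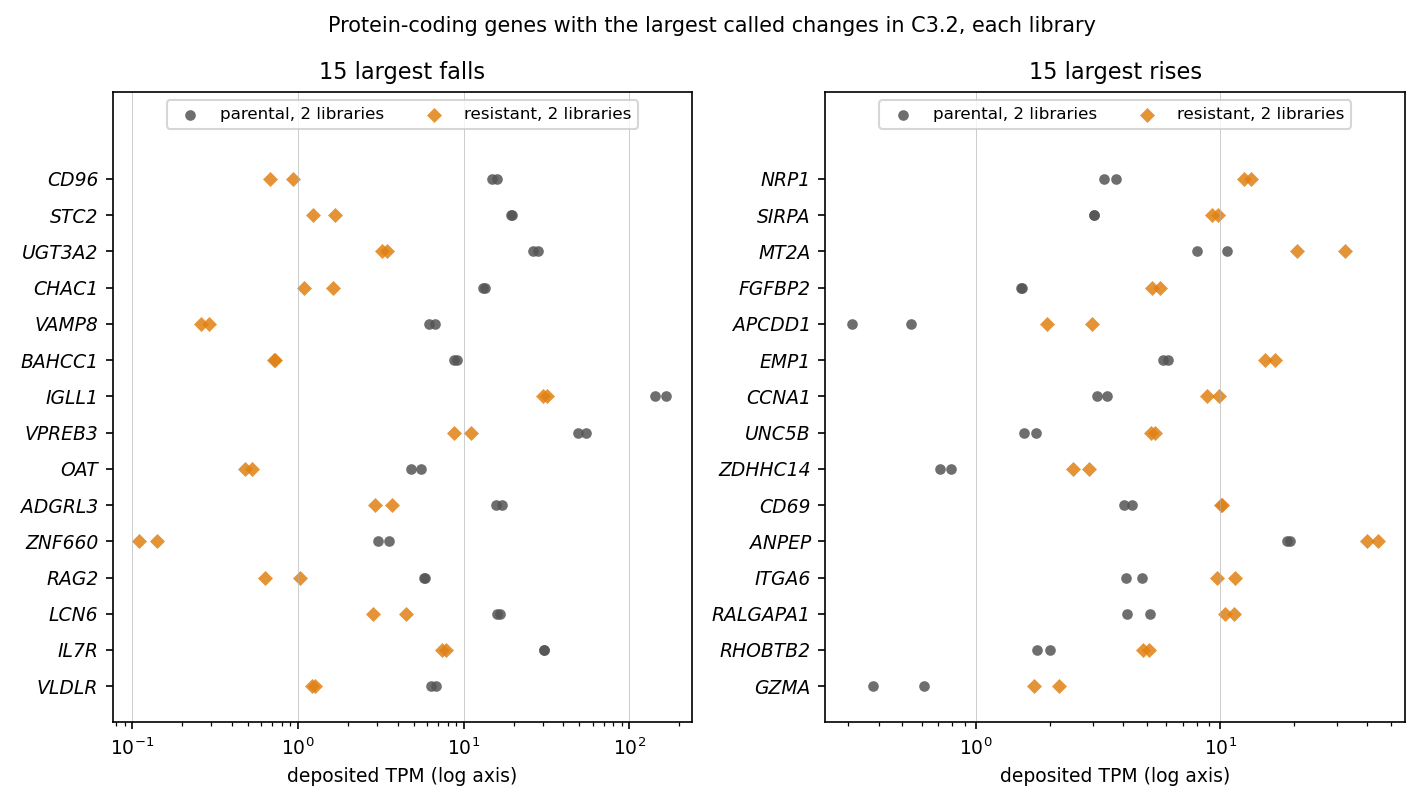
Deposited TPM (log axis) of the 15 protein-coding genes with the largest called falls (left) and rises (right) in each library, grey circles for parental and orange diamonds for resistant cells. The naming rule took genes whose groups did not overlap, and *CD96* went from 15.98 and 14.7 TPM to 0.93 and 0.68 TPM.

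Genes of the amino acid response formed a second group. ATF4 is a transcription factor that is translated when amino acids are short or the endoplasmic reticulum is stressed, and with C/EBP partners it binds elements of the form TGATGNAA in front of amino acid enzymes, transporters and stress effectors. *CHAC1* (chr15:40952962-40956512), which degrades glutathione, was 13.03 and 13.5 TPM in parental libraries and 1.09 and 1.63 TPM in resistant libraries (log2 change -2.69, adjusted p = 0.000156, limma). *ASNS*, asparagine synthetase, was 34.5 and 34.96 TPM in parental libraries and 14.6 and 13.4 TPM in resistant libraries (log2 change -1.32, adjusted p = 0.000137, limma). The groups were well apart in both genes. Their RefSeq promoters are shown because these genes are textbook ATF4 targets and each held 1 match, in capitals, 5′ to 3′ on the strand of the gene; the *CHAC1* stretch is chr15:40953242-40953289 on the plus strand and the *ASNS* stretch is chr7:97872449-97872496 on the minus strand of GRCh38.p14.
CHAC1: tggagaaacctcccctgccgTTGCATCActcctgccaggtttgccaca
ASNS: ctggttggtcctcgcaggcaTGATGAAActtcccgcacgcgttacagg
The element was searched on both strands of windows of 300 bases (250 before and 50 after the start) and was found in 3.67% of 27305 promoters. It was found in 3 of 18 promoters of ATF4, its upstream kinases and its stress effectors. Amino acid and one-carbon enzymes had it in 4 of 16, amino acid transporters in 3 of 14 and cytosolic tRNA synthetases in 6 of 16. Among called genes of these lists it was found in 2 of 9, 2 of 9, 3 of 8 and 4 of 7 promoters, respectively. A match describes the letters and not binding.

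The ATF4 list holds *ATF4*, its stress effectors and 4 kinases upstream of it. Of its 20 tested genes 10 fell, none rose and 10 were not called, with a median of -0.32. *ATF4* itself had a log2 change of -0.55, *ATF3* of -0.88 and *SESN2*, a leucine sensor and stress sestrin, of -1.23, all 3 called under all 4 scalings. *VLDLR*, a lipoprotein receptor, fell from 6.37 and 6.81 TPM to 1.26 and 1.22 TPM. The 4 tested kinases that phosphorylate eIF2α upstream of ATF4, EIF2AK1 to EIF2AK4, were not called, with log2 changes between -0.18 and 0.21. The kinase inhibitor *TRIB3* (-0.22) and the factors *DDIT3* (-0.55) and *ATF5* (-0.26) were not called.

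Amino acid enzymes and transporters showed the same direction. Of 23 tested enzymes of amino acid synthesis and one-carbon metabolism 12 fell and 1 rose, with a median of -0.26. The serine pathway was represented by *PHGDH* (-0.74), *PSAT1* (-0.88) and *PSPH* (-0.33), all called lower, and the mitochondrial folate enzymes by *MTHFD2* (-0.72) and *SHMT2* (-0.44), while the cytosolic *SHMT1* (0.03) and *MTHFD1* (-0.14) were not called. *GPT2*, mitochondrial alanine aminotransferase, fell from 19.3 and 20.03 TPM to 6.02 and 4.54 TPM, and *CBS*, which makes cystathionine, fell from 1.72 and 1.18 TPM to 0.14 and 0.26 TPM. *PYCR3*, a proline-synthesis enzyme, rose with a log2 change of 0.44. Of 16 transporters 10 fell and none rose, with a median of -0.32. *SLC7A11*, the cystine carrier of system xc-, fell from 3.44 and 3.67 TPM to 0.84 and 0.79 TPM (log2 change -1.40, adjusted p = 0.00037, limma), and its partner *SLC3A2*, the shared heavy chain, fell from 66.04 and 62.8 TPM to 44.8 and 40.5 TPM. *SLC7A5*, the light chain of the leucine carrier LAT1, had a log2 change of -0.62, and the glycine transporter *SLC6A9* was 1.23 and 1.05 TPM in parental libraries and 0.17 and 0.1 TPM in resistant libraries. Of 20 cytosolic tRNA synthetases 9 fell and 1 rose with a median of -0.27, led by *GARS* (-0.55) and *SARS* (-0.52). The synthetase calls were the least stable of the 4 lists, with 2 lower under all 4 scalings and 1, *SARS*, lower in the 4 libraries alone. In the 4 C3.2 libraries alone 7 genes of the ATF4 list, 7 enzymes and 5 transporters were called, all lower.

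Sterol synthesis genes were lower in resistant cells. Of 31 tested genes of cholesterol and fatty acid synthesis, 19 fell, none rose and 12 were not called, and the median log2 change was -0.30 against 0.0013 for all genes. *TM7SF2*, a sterol reductase, fell from 14.2 and 13.5 TPM to 5.56 and 5.8 TPM (log2 change -1.22, adjusted p = 0.00037, limma). *HMGCS1*, which makes HMG-CoA, was 126 and 127 TPM in parental libraries and 92.2 and 78.4 TPM in resistant libraries. The order of levels was parental above resistant in both genes, with no overlap. Further along the pathway *FDPS* (-0.49), *LSS* (-0.49), *CYP51A1* (-0.42) and *DHCR7* (-0.50) fell. *SCD*, the desaturase that makes oleate, fell from 57.6 and 61.5 TPM to 35.6 and 37.7 TPM and *INSIG1*, which retains the sterol sensor SCAP in the endoplasmic reticulum, had a log2 change of -0.45. The factor *SREBF2* (-0.13) and *FASN* (-0.12), fatty acid synthase, were not called. Of the 19 falls 13 were called under all 4 scalings and 7 in the 4 libraries alone, and the list's summed scaled TPM was 2006 and 2028 in parental and 1601 and 1641 in resistant libraries.

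**Figure D3:**
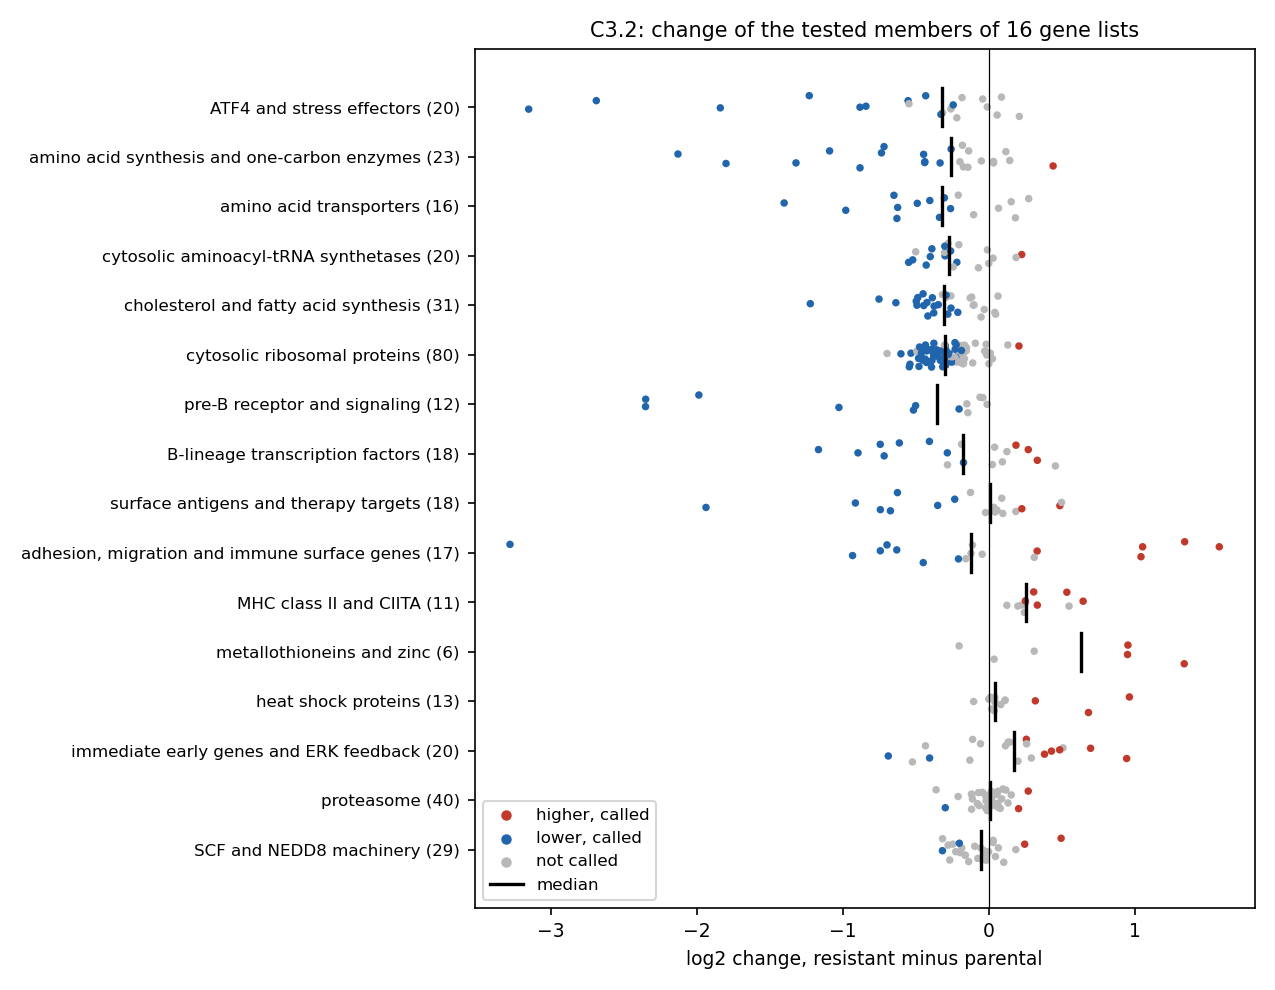
Log2 change (resistant minus parental) of each tested member of 16 gene lists in C3.2, with the number tested in brackets, called members in red (higher) or blue (lower) and the median as a black bar. The medians of the amino acid, sterol and pre-B receptor lists lay between -0.35 and -0.26, and that of MHC class II at 0.25.

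Genes of the pre-B receptor stage were lower. In bulk RNA fewer cells of a type and less RNA per cell cannot be told apart. Of 12 tested members of the pre-B receptor and its signaling, 7 fell and 5 were not called, and all 12 had negative log2 changes, with a median of -0.35. *IGLL1* (chr22:23573125-23580302), the λ5 part of the surrogate light chain, was 143 and 166 TPM in parental libraries and 29.96 and 31.7 TPM in resistant libraries (log2 change -2.35, adjusted p = 8.30e-05, limma). *VPREB3* (chr22:23752743-23754425) was 49.1 and 54.8 TPM in parental libraries and 8.77 and 11.1 TPM in resistant libraries, and *VPREB1*, the other surrogate light chain component, had a smaller log2 change of -0.52. The resistant libraries were below both parental libraries in all 3 genes. *IGLL5*, a close relative of *IGLL1* with which reads may be shared, was 12 and 13.9 TPM in parental libraries and 3.46 and 3.47 TPM in resistant libraries and was chosen after its values were seen. *RAG2*, a subunit of the V(D)J recombinase, fell from 5.81 and 5.77 TPM to 1.03 and 0.63 TPM; it overlaps *IFTAP* on the opposite strand, and the sources used here do not give whether counting used the strand. *CD79B* fell from 15.3 and 15.3 TPM to 7.29 and 7.49 TPM, whereas its partner *CD79A* had a log2 change of -0.20 that was not called under all 4 scalings. The kinases *SYK* (-0.01), *BTK* (-0.06), *LYN* (-0.15) and *BLK* (-0.14) and the heavy chain *IGHM* (-0.04) were not called. *BLNK*, *RAG1* and *DNTT* did not reach the level tested.

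Interleukin-7 receptor RNA fell with this group. *IL7R* (chr5:35852695-35879603) was 30.4 and 30.5 TPM in parental libraries and 7.82 and 7.43 TPM in resistant libraries, a log2 change of -1.94 (SE 0.072, adjusted p = 0.000103, limma), and the groups were far apart. *IL2RG*, the common γ chain that pairs with it, was 32.7 and 33.9 TPM in parental libraries and 11.7 and 10.4 TPM in resistant libraries (log2 change -1.58, adjusted p = 0.000103, limma). *IL2RG* was chosen after its values were seen, as were *TCL1A*, a B-cell proto-oncogene (from 55.7 and 58.1 TPM to 16.6 and 17.3 TPM), and *DOK3*, an adaptor of B-cell receptor signaling (from 30.5 and 31.4 TPM to 9.54 and 9.2 TPM). Genes chosen in this way give no support to a fall of the group. Of 18 surface antigens and therapy targets 7 fell and 2 rose, with a median of 0.0048, against 7.50% lower and 4.99% higher over all genes. The ectoenzyme *CD38* fell from 5.85 and 6.7 TPM to 2.35 and 3.84 TPM and *CD52*, a short surface glycoprotein, fell from 8.9 and 9.52 TPM to 4.8 and 6.69 TPM, both with the 2 resistant libraries unequal. *CD22* (0.09) and *MS4A1* (0.18), the antigens CD22 and CD20 used in therapy, were not called. *CD99*, a surface glycoprotein of leukemic blasts, rose from 28.9 and 30.2 TPM to 46.7 and 40.8 TPM.

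B-lineage transcription factors moved in both directions. Of 18 tested factors, 8 fell, 3 rose and 7 were not called. *BCL6*, a repressor of the germinal center and pre-B stages, fell from 14.6 and 17.1 TPM to 6.77 and 6.93 TPM (log2 change -1.17, adjusted p = 0.00103, limma). *IKZF2* (from 3.89 and 4.32 TPM to 1.92 and 1.81 TPM), *MYB* (from 69.8 and 68.2 TPM to 45.5 and 41.7 TPM) and the coactivator *POU2AF1* (log2 change -0.61) also fell under all 4 scalings. *PAX5* (0.27), the B-lineage commitment factor, and *BCL11A* (0.33) rose, whereas *EBF1* (-0.19) was not called. In the list of HOXA and KMT2A-rearranged leukemia genes, 21 of 23 tested members were not called, *HOXA9* (-0.08) and *MEIS1* (0.21) among them. The 2 that fell were *SATB1*, a chromatin organizer (from 88.1 and 92.9 TPM to 45.9 and 41.4 TPM), and the MEIS partner *PBX3* (from 51.6 and 49.8 TPM to 34.1 and 23.3 TPM). *UHRF1*, which recruits the maintenance DNA methyltransferase, fell from 270.0 and 277 TPM to 164 and 157 TPM (log2 change -0.83, adjusted p = 0.000153, limma), whereas *DNMT1* (-0.20) and the other 4 tested genes of DNA methylation were not called.

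The largest rises included several surface receptors. *NRP1* (chr10:33177492-33336262), a co-receptor for semaphorins and VEGF, was 3.33 and 3.74 TPM in parental libraries and 12.5 and 13.3 TPM in resistant libraries, a log2 change of 1.58 (SE 0.15, adjusted p = 0.00242, limma). *SIRPA* (chr20:1894167-1940592), the inhibitory receptor for CD47, was 3.03 and 3.03 TPM in parental libraries and 9.22 and 9.77 TPM in resistant libraries (log2 change 1.34, adjusted p = 0.00037, limma). Both resistant libraries were far above the parental ones in each gene. *ANPEP* (chr15:89784895-89815401), the aminopeptidase CD13, rose from 18.8 and 19.2 TPM to 44.4 and 39.9 TPM, and its adjusted p of 0.000154 (limma) was the smallest of the 15 rises. *SIRPA* and *ANPEP* are also expressed by myeloid cells. Of the markers of such cells, *LYZ* and *CD33* were above the parental libraries in both resistant libraries. *CSF1R* overlapped between the groups, with 1.56 and 2.29 TPM in parental and 2.03 and 1.65 TPM in resistant libraries. So did *CD68*, *ITGAM*, *CD14* and *MPO*, all under 1 TPM. *S100A8*, *S100A9*, *ELANE* and *FCGR3A* were at 0 in all 4 libraries. The part of such cells was not tested. *EMP1*, an epithelial membrane protein, rose from 6.11 and 5.82 TPM to 15.3 and 16.8 TPM, and *UNC5B*, a netrin receptor, rose from 1.57 and 1.76 TPM to 5.42 and 5.18 TPM. *CD69*, an activation antigen, rose from 4.05 and 4.35 TPM to 10.1 and 10.2 TPM, and *ITGA6*, the integrin α6 chain, rose from 4.11 and 4.77 TPM to 9.65 and 11.5 TPM. In the list of adhesion, migration and immune surface genes, 5 of 17 tested members rose and 7 fell. The 5 were *NRP1*, *SIRPA*, *CD69*, *ITGA6* and *ITGB1* (0.33), the integrin β1 chain that pairs with α6. The 7 falls included *CXCR4* (-0.74), the receptor that holds B-cell precursors in the marrow, *ITGB7* (-0.63), *PLXND1* (-0.70) and the Fc receptor-like gene *FCRLA* (-0.93).

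The remaining large rises had lower levels or other roles. *CCNA1*, cyclin A1, rose from 3.44 and 3.14 TPM to 9.91 and 8.84 TPM, and *RALGAPA1*, a subunit of a GTPase-activating complex for Ral, rose from 4.14 and 5.15 TPM to 11.4 and 10.4 TPM. *FGFBP2* rose from 1.54 and 1.53 TPM to 5.68 and 5.27 TPM; it overlaps *PROM1* on the same strand, which had a log2 change of 0.23. *RHOBTB2* (from 2.01 and 1.77 TPM to 4.83 and 5.09 TPM) overlaps *TNFRSF10B* (from 3.26 and 3.4 TPM to 7.41 and 8.01 TPM), which encodes the death receptor DR5, on the opposite strand, and both rose. *ZDHHC14*, a palmitoyltransferase, rose from 0.71 and 0.79 TPM to 2.49 and 2.91 TPM. *APCDD1*, an inhibitor of Wnt signaling, was 0.54 and 0.31 TPM in parental libraries and 2.98 and 1.96 TPM in resistant libraries, and *GZMA*, granzyme A, was 0.61 and 0.38 TPM in parental libraries and 2.18 and 1.72 TPM in resistant libraries, both under 1 TPM in parental cells. Neither was called in the 4 C3.2 libraries alone (adjusted p = 0.06 and 0.0684, limma). All 15 rises were called under all 4 scalings, and 7 of them, *MT2A*, *FGFBP2*, *APCDD1*, *ZDHHC14*, *ITGA6*, *RALGAPA1* and *GZMA*, lost the call in at least 1 fit that left out a library, with adjusted p-values from 0.0506 to 0.114 (limma).

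All 3 tested metallothioneins, small cysteine-rich proteins that bind zinc and copper, rose. *MT2A* (chr16:56608584-56609497) was 8.03 and 10.6 TPM in parental libraries and 20.7 and 32.4 TPM in resistant libraries (log2 change 1.34, adjusted p = 0.0154, limma), and the 2 resistant libraries differed by more than the parental ones. *MT1X* rose from 14.8 and 17.17 TPM to 30.4 and 36.1 TPM and *MT1F* rose from 9.24 and 8.9 TPM to 19.0 and 19.6 TPM. The other 7 listed metallothioneins did not reach the level tested, and the metal-sensing factor *MTF1* (0.31) and the zinc exporter *SLC30A1* (0.04) were not called. *MT2A* lost its call in the 4 libraries alone (adjusted p = 0.0848, limma), and the other 2 kept it. Metal response elements, to which MTF1 binds, have the core TGCACNC or TGCGCNC. The RefSeq promoters of *MT2A* (chr16:56608334-56608583) and *MT1X* (chr16:56682300-56682443), both on the plus strand of GRCh38.p14, are shown with the cores on either strand in capitals, because they hold 7 and 4 of them in the bases before the start.
MT2A: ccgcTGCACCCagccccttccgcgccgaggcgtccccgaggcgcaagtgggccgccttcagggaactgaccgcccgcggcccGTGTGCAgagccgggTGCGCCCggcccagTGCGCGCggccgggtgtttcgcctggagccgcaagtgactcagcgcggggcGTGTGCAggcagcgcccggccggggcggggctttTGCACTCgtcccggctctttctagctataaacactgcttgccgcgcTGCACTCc
MT1X: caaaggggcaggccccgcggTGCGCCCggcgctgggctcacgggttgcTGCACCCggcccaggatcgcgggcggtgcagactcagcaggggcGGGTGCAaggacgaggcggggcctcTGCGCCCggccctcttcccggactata
A core was present in 29.3% of the 27305 promoters of 300 bases, so its presence alone is common.

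MHC class II genes were higher in resistant cells. All 11 tested genes had positive log2 changes, with a median of 0.25, and 5 were called. *CIITA*, the master coactivator of these genes, rose from 40.6 and 43.5 TPM to 55.9 and 55.4 TPM (log2 change 0.33, adjusted p = 0.00878, limma). *HLA-DMB*, which loads peptides, rose from 4.05 and 4.08 TPM to 6.95 and 7.44 TPM and *HLA-DRB1* rose from 8.93 and 10.5 TPM to 14.02 and 16.3 TPM. The invariant chain *CD74* (0.25) and *HLA-DOA* (0.31) rose as well, and *HLA-DRA* (0.12) was not called. The same 5 were called with the TPM as deposited, 11 when TPM were rescaled over protein-coding genes and 1 in the 4 libraries alone. Reads of class II paralogs can be shared between loci, which leaves the split between them uncertain. Of 12 MHC class I and peptide-loading genes, the peptide trimmer *ERAP2* (-0.35) fell and 11 were not called.

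Stress and growth genes changed unevenly. The inducible HSP70 genes *HSPA1A* (from 9.73 and 10.6 TPM to 18.4 and 16.96 TPM) and *HSPA1B* (from 14.4 and 13.8 TPM to 29.8 and 29.3 TPM), which are near-identical copies, rose with their co-chaperone *DNAJB1* (0.32), whereas 10 of 13 heat shock genes were not called. Single genes that fell included the cell-cycle inhibitor *CDKN1A* (-0.46) and the BH3-only genes *BBC3* (from 3.15 and 2.94 TPM to 1.74 and 1.62 TPM) and *PMAIP1* (from 18.6 and 19.7 TPM to 14.7 and 14.8 TPM). *TIGAR* (0.58), a regulator of glycolysis, the sestrin *SESN1* (0.47) and the translesion polymerase *POLH* (0.25) rose. Of 20 immediate early and ERK feedback genes 6 rose, among them *IER3* (from 1.38 and 1.52 TPM to 4.07 and 3.54 TPM), *FOSB* (from 0.62 and 1.09 TPM to 1.85 and 2.18 TPM) and *KLF6* (from 13.5 and 14.6 TPM to 20.4 and 21.4 TPM), and 2 fell, the ERK antagonist *SPRY1* (from 6.53 and 6.04 TPM to 3.5 and 3.94 TPM) and the phosphatase *DUSP1* (-0.41). Of 22 interferon-stimulated genes *USP18* (0.53) and *BST2* (0.32) rose and *XAF1* (from 20.9 and 21.3 TPM to 12.7 and 10.8 TPM) fell. *NQO1*, a quinone reductase under NRF2, rose from 4.4 and 5.89 TPM to 8.13 and 8.36 TPM, while 13 of 15 NRF2 genes were not called. *MYC* was 142 and 142 TPM in parental libraries and 125 and 117 TPM in resistant libraries, and its log2 change of -0.29 was not called under all 4 scalings.

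Ribosomal protein genes were lower as reported, and their calls moved with the scaling. Of 80 tested genes 46 fell, 1 rose (*RPS26*, 0.21) and 33 were not called, with a median of -0.30. The count of falls was 32 when TPM were rescaled over protein-coding genes, 16 with the TPM as deposited, 10 after quantile normalization and 3 in the 4 libraries alone, and over the 4 scalings the median ranged from -0.30 to -0.10. *RPL11* was 740.1 and 723 TPM in parental libraries and 607 and 418 TPM in resistant libraries, so that resistant library 2 was well below resistant library 1. Only 6 of the falls were called under all 4 scalings, *RPL9* (from 796 and 816 TPM to 640.2 and 525 TPM) among them. Of 33 ribosome biogenesis genes *POLR1E* (0.45) and *NOP2* (0.29) rose and none fell.

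Cell-cycle, repair, energy and other lists are read against the 12.5% called over all genes, 4.99% higher and 7.50% lower. Among 36 DNA replication genes 7 fell and none rose, but 1 of them, *MCM5* (from 74.96 and 75.9 TPM to 64.5 and 57.4 TPM), fell under all 4 scalings. Among 24 genes of G2 and mitosis 1 was called, *CCNA2* (-0.19), and among 26 genes of double-strand break repair and bleomycin hydrolase 2 were, *POLQ* (-0.20) and *PARP1* (-0.20), each lower and none under all 4 scalings. Zeocin, a bleomycin-family antibiotic, breaks DNA, and the latter list was read for that reason. Of 61 replication-dependent histone genes 10 fell and 1 rose, with a median of -0.17, and only 2 of the falls were called under all 4 scalings. Of 85 nuclear genes of oxidative phosphorylation 1 rose, the assembly factor *NDUFAF1*, and 2 fell, neither of these under all 4 scalings. None of 13 mitochondrial genome transcripts was called. Of 29 genes of glycolysis and the hypoxia response 5 fell, led by *ALDOC* (-0.49), but none of them under all 4 scalings. The pyruvate kinase gene *PKM* (0.23) rose. Of 30 genes of endoplasmic reticulum chaperones and degradation 6 fell and 1 rose, and *EDEM1* was the only fall called under all 4 scalings. *EDEM1*, which sorts misfolded glycoproteins, fell from 32.05 and 34.3 TPM to 21.5 and 20.9 TPM, while the chaperone BiP, *HSPA5* (0.26), rose. Of 18 autophagy and lysosome genes *TFEB* (from 9.59 and 11.4 TPM to 15.2 and 15.6 TPM) and *CTSD* (0.40) rose and none fell, and neither call held in the 4 libraries alone (adjusted p = 0.0795 and 0.147, limma). Of 10 ABC transporters *ABCB6* (0.52) and *ABCA2* (0.34) rose and *ABCB4* (from 2.77 and 3.28 TPM to 1.3 and 1.49 TPM) fell. Of 12 genes of the BCL2 family *BMF* (from 15.4 and 16.01 TPM to 22.6 and 22.6 TPM) rose, beside the falls of *BBC3* and *PMAIP1*, and *BCL2* (0.08) and *MCL1* (0.14) were not called. Only 3 of 53 clustered protocadherins, which depend on CTCF in neurons, were tested, and *PCDHGC5* (from 2.54 and 2.84 TPM to 4.15 and 4.05 TPM) rose.

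Non-coding genes with the largest called changes were mostly listed at 0 in a group. The 5 with the largest rises included *AC008667.4*, listed at 0 in both parental libraries and at 4.46 and 2.92 TPM in the resistant libraries, and *AP001029.1*, at 0 and then 2.23 and 2.92 TPM. *RNU2-18P*, a U2 pseudogene inside *PTER*, was at 0 in the parental libraries and at 1.31 and 3.46 TPM in the resistant libraries. *RF02271* was 0 and 0.7 TPM in parental libraries and 2.98 and 3.73 TPM in resistant libraries, inside *SMARCA4*, and *AC006011.1* was 2.63 and 6.08 TPM in parental libraries and 11.8 and 11.5 TPM in resistant libraries, inside *POLR2D*, so reads of the host genes could have been counted in either. In the 4 libraries alone the calls of *RNU2-18P*, *RF02271* and *AC006011.1* were lost (adjusted p = 0.0959, 0.0713 and 0.119, limma). The 5 with the largest falls were 2 small RNA genes of the *RF00019* family, *MIR5193*, *RNU6-914P* and *RNU6-31P*, all listed at 0 in both resistant libraries, and *MIR5193* was not called in the 4 libraries alone (adjusted p = 0.0513, limma). They are at most 110 bases long and belong to the length class that was at 0 throughout resistant library 2. *RF00019* of chromosome 7 was at 50.1 and 20.7 TPM in the parental libraries, *RNU6-914P* at 14.2 and 10.8 TPM, *RNU6-31P* at 8.28 and 13.3 TPM and *MIR5193* at 7.01 and 23.1 TPM.

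The change in C3.2 was then set beside that in C17.2, whose resistant cells had the same treatment and whose 4 libraries are separate samples. Per the paper, resistant C17.2 cells carried a nonsense change in *CTCF* and made a truncated CTCF that lacks the tag, unlike those of C3.2. The library numbers form a separate series for each clone. Clone, library series and the kind of resistance change therefore cannot be told apart. The parental and resistant libraries of a clone share a series. The interaction, the log2 change in C3.2 minus that in C17.2, was called for 1539 genes (10.6%). In C17.2 itself 4151 of the 14519 genes were called (28.6%). Of the 1813 genes called in C3.2, 1005 were called in the same direction in C17.2, 131 in the opposite direction, and 545 had a called interaction. Of the 135 genes with at least a 2-fold change, 77 were called in the same direction, 11 in the opposite direction, and 67 had a called interaction.

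The medians of sterol synthesis and MHC class II differed in sign between the clones. The median of sterol genes was -0.30 in C3.2 and 0.33 in C17.2, and the interaction was called for 19 of 31, all toward lower values in C3.2 and 18 of them with opposite signs. *HMGCS1* had log2 changes of -0.64 in C3.2 and 0.79 in C17.2, an interaction of -1.43 (adjusted p = 0.00062, limma). In C17.2 20 of the sterol genes were called higher and 4 lower. *TM7SF2*, the largest sterol fall in C3.2, also fell in C17.2 (-0.85), and its interaction of -0.37 was not called (adjusted p = 0.0623, limma). For MHC class II the medians were 0.25 and -0.40, and the interaction was called for 10 of 11, all toward higher values in C3.2. *CIITA* had an interaction of 0.80 (adjusted p = 0.00167, limma). The medians of the 4 amino acid lists were -0.32 to -0.26 in C3.2 and -1.67 to -0.71 in C17.2. The interaction was called for 15 of 20 genes of the ATF4 list, 11 of 16 transporters and 10 of 20 tRNA synthetases. All of these went toward higher values in C3.2. It was also called for 11 of 23 enzymes, 10 of them toward higher values. *TRIB3* had the largest interaction of the protein-coding genes, 3.29 (adjusted p = 0.000211, limma), with a log2 change of -3.52 in C17.2. *OAT* went the other way, with log2 changes of -2.13 in C3.2 and 0.52 in C17.2 (interaction -2.65).

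**Figure D4:**
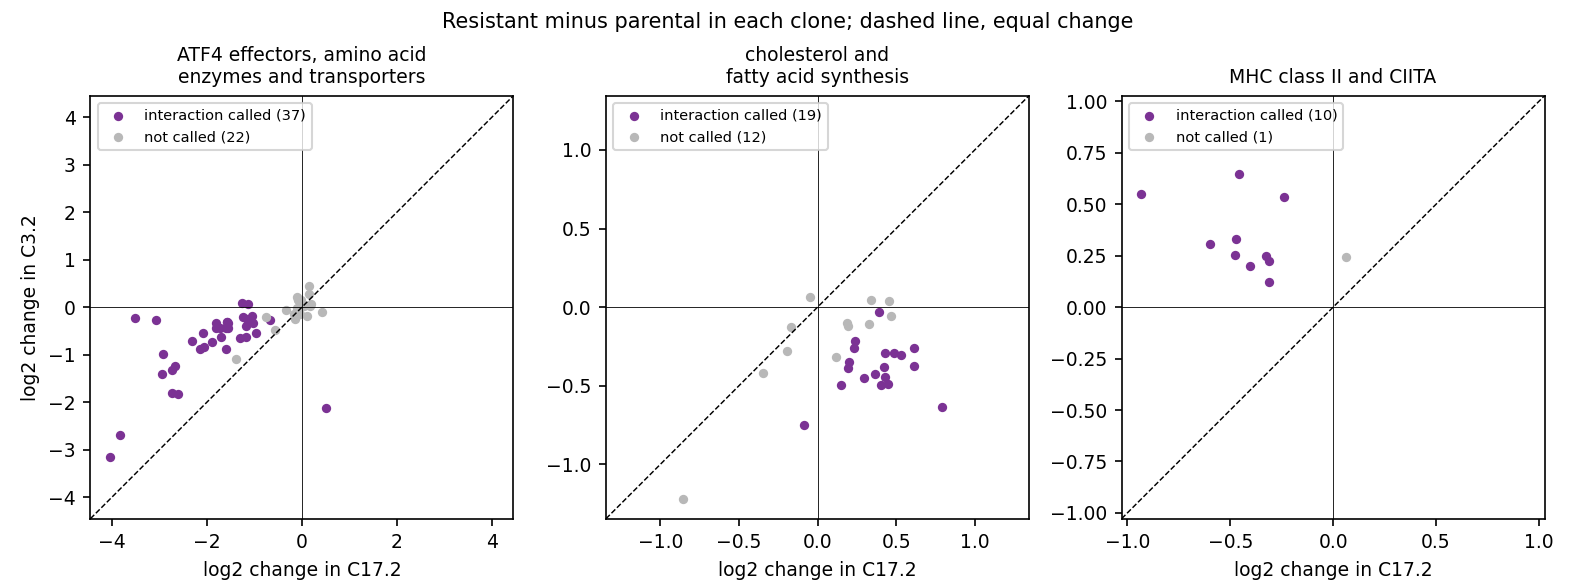
Log2 change (resistant minus parental) of tested list members in C3.2 (vertical) against C17.2 (horizontal), purple where the interaction was called and grey where it was not, with a dashed line of equal change. Most amino acid genes lay above the line in the lower left, most sterol genes in the lower right (19 of 31 called) and MHC class II genes in the upper left (10 of 11 called).

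Single genes also separated the clones. *UGT3A2* had log2 changes of -2.78 in C3.2 and 1.32 in C17.2, the lowest interaction of any protein-coding gene (-4.10, adjusted p = 2.08e-05, limma). *IL7R* fell by 1.94 in C3.2 and had a change of -0.34 in C17.2 (interaction -1.60), and *CD52* had changes of -0.67 and 1.16. *UNC5B*, *ANPEP*, *ITGA6* and *MT2A* rose in C3.2 and had changes of -0.87, -0.42, -0.43 and -0.79 in C17.2, each with a called interaction. *SIRPA*, at -0.07 in C17.2, also had a called interaction (1.41). By contrast the interaction was not called for *BAHCC1* (-0.31), *IGLL1* (-0.19), *LCN6* (0.27), *EMP1* (-0.35) or *RHOBTB2* (0.16), which does not show that they changed alike.

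**Figure D5:**
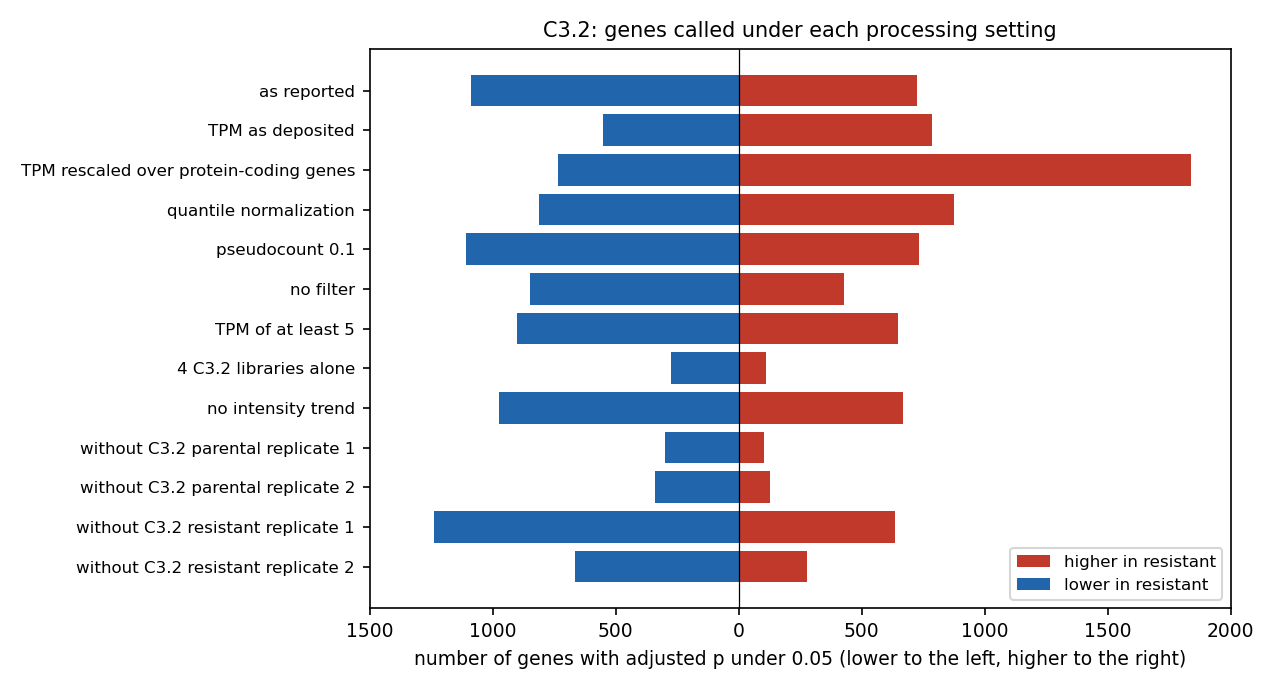
Number of genes called in C3.2 under each processing setting, those higher in resistant cells to the right (red) and those lower to the left (blue). The split moved from 724 higher and 1089 lower as reported to 1837 higher and 733 lower when TPM were rescaled over protein-coding genes, and the totals without either parental library were 402 and 468.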

How the data were processed

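RNA-seq of CTCF AID2 SEM cells was analysed in 8 libraries, with 2 of parental and 2 of resistant cells from each of C3.2 and C17.2. Per the submitters' processing notes, the authors trimmed reads with Trim Galore 0.6.3, aligned them with STAR 2.7.9a and quantified genes with RSEM 1.3.1, and TPM of each gene are what they deposited, without a factor between libraries. TPM keep no depth, so no counting error can be given. The methods describe paired-end reads and the labels single-end reads.

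Genes were kept where any C3.2 library reached 1 TPM. Library factors were the trimmed mean of log2 ratios to the mean library (30% of ratios and 5% of means trimmed from each end). Log2(scaled TPM + 1) was fitted in limma 3.58.1 (R 4.3.3) with the 4 groups, an intensity trend and 4 residual degrees of freedom, and p-values were two-sided with Benjamini-Hochberg adjustment over all tested genes. Such TPM are not counts, so no count model was used. The model was tested on simulated data. An exact permutation test of 2 libraries against 2 cannot go below p = 0.333. Gene spans and overlaps came from Gencode on GRCh38, matched by identifier for 99.5% of tested genes.

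The genes named were *CTCF*, *SKP1*, *CUL1*, *RBX1* and *MYC*; 15 protein-coding genes in each direction by size of change, and 5 each of other biotypes, among called genes with a mean of at least 1 TPM and no overlap between groups; up to 4 called genes per list with the largest changes; and the 5 largest and 5 smallest interactions. Other list members are named to show the roles within a list. *IGLL5*, *IL2RG*, *TCL1A* and *DOK3* were chosen after their values were seen. The comparison, its lists and the motifs were chosen with earlier results of these data known. Python 3.11.15, pandas 2.3.3 and matplotlib 3.10.9 made tables and plots. The miniAID and OsTIR1 sequences, the ChIP-seq and the mass spectrometry were not analysed here, and a few genes are not reported here.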

Additional observations from a re-analysis of the deposited data

Results flagged for a closer look

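For 85 of the genes named, the log2 change of C3.2 differed from that of C17.2 by the test of the interaction (limma with Benjamini-Hochberg adjustment over all tested genes), and this alone set them apart. Values below are the change in C3.2 minus the change in C17.2, on the log2 scale. Lower and higher refer to this difference and not to the direction in C3.2. Of the amino acid response, all but 1 gene had a higher change in C3.2 than in C17.2, with *OAT* (-2.65) the exception. The others were *VLDLR* (0.77), *STC2* (0.90), *CHAC1* (1.15), *SESN2* (1.43), *SLC7A3* (0.54), *SLC3A2* (0.64), *GPT2* (0.93), *ASNS* (1.43), *SLC7A11* (1.54), *SLC6A9* (1.94), *YARS* (0.55), *SARS* (1.09), *GARS* (1.18), *WARS* (2.71), *ATF5* (2.81) and *TRIB3* (3.29). Sterol genes were lower, with *HMGCS1* (-1.43), *DHCR7* (-0.90) and *SCD* (-0.67), and MHC class II genes higher, with *HLA-DRB1* (0.77), *CIITA* (0.80), *HLA-DOA* (0.90) and *HLA-DMB* (1.10).

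B-cell and surface genes differed in both directions. The change was lower in C3.2 than in C17.2 for *IKZF2* (-1.0), *MYB* (-0.45), *RAG2* (-1.02), *CD69* (-1.21), *CD96* (-1.15), *CD52* (-1.83), *IL7R* (-1.60) and *SATB1* (-0.57), although *CD69* rose in both clones. It was higher for *CD79B* (0.48), *VPREB3* (1.00), *SIRPA* (1.41), *ANPEP* (1.47), *ITGA6* (1.47) and *UNC5B* (2.08), although *CD79B* and *VPREB3* fell in both clones.

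Other protein-coding genes toward lower values were *UGT3A2* (-4.10), *ZNF660* (-2.30), *ADGRL3* (-1.16), *FGFBP2* (-1.14), *ALDOC* (-1.12), *VAMP8* (-1.11), *HSPA1A* (-0.94), *NDUFA6* (-0.93), *SPRY1* (-0.82), *NQO1* (-0.74), *POLR1E* (-0.71), *SKP1* (-0.66), *CDC6* (-0.55), *DNAJB1* (-0.46), *STAG1* (-0.44), *PSMA6* (-0.44), *UHRF1* (-0.37), *PARP1* (-0.37), *PSMC4* (-0.30) and *PSME3* (-0.24). Those toward higher values were *PMAIP1* (0.43), *MYC* (0.46), *IER3* (0.48), *KLF6* (0.53), *HIST1H2BB* (0.60), *XAF1* (0.61), *HIST1H3I* (0.63), *EDEM1* (0.73), *BBC3* (0.77), *CDT1* (0.81), *TFEB* (0.84), *BMF* (1.08), *TNFRSF10B* (1.22), *HIST1H2BJ* (1.24), *HERPUD1* (1.51), *APCDD1* (1.67), *MT2A* (2.13), *ST6GALNAC3* (2.42) and *SPNS3* (2.90). Of non-coding genes, *AC008667.4* (1.83) and *AP001029.1* (2.35) were higher, while *RNU6-914P* (-7.35), *RF00019* (-5.19 and -4.70), *RNU6-112P* (-4.35), *MIR5193* (-3.92) and *RNU6-31P* (-3.65) were lower. Those 6 have at most 110 bases and were listed at 0 in both resistant libraries of C3.2, of which library 2 had no small RNA gene of that length above 0. For both *RF00019* genes, *MIR5193* and *RNU6-31P* the log2 change in C17.2 was 0, so the difference is the fall in C3.2 alone.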

How the results depend on the processing

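In C3.2, the number of genes called, 1813, stayed within 1.5 times that number under the other scalings and a pseudocount of 0.1. The same held for no filter, a TPM minimum of 5 and no intensity trend. It also held when genes of at most 110 bases were left out of the Benjamini-Hochberg adjustment, without a new fit. That alternative was chosen after seeing the data. In the 4 C3.2 libraries alone 386 were called, with 2 residual degrees of freedom. Leaving out 1 library gave 402 (without parental library 1) to 1874 (without resistant library 1). The count with at least a 2-fold change, 135 as reported, was 274 with a pseudocount of 0.1 and 86 with a TPM minimum of 5, which tests 9813 genes, and 120 to 260 with 1 library left out. The 1539 genes with a called interaction became 548 to 1822 with 1 library left out. Where a group kept 1 library, it was assumed to vary like the others.

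Of 146 genes given by the naming rule, 73 lost the call in the 4 libraries alone, 30 with the TPM as deposited, 17 over protein-coding genes, 17 after quantile normalization, 34 with no filter, 15 with no trend and 2 with a pseudocount of 0.1. Without a parental library 72 to 83 lost it, and without a resistant library 27 to 48. The uncalled log2 change of *SKP1* turned from -0.02 to 0.047 with the TPM as deposited, 0.086 over protein-coding genes and 0.083 after quantile normalization, and that of *RBX1* ranged from -0.013 without resistant library 2 to 0.067 without resistant library 1. The cause was not tested. At an unadjusted p under 0.05, 4228 genes passed. No paired analysis was possible because the replicate numbers only name libraries and nothing ties a resistant library to a parental one. TPM keep no depth, and genes listed at 0 have no fold.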
